A study of Saccharomyces cerevisiae with 6 samples.

Results

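The comparison described here sets 1 h of nitrogen starvation against no treatment in the budding yeast Saccharomyces cerevisiae. It uses 4 of the 6 RNA sequencing libraries of the study, chosen by their labelled treatment: nitrogen starvation libraries 1 and 2 and control libraries 1 and 2. All came from strain BY4741, a haploid laboratory strain without working HIS3, LEU2, MET17 or URA3 genes, grown to exponential phase in synthetic complete medium. Nitrogen libraries were from cells kept for 1 h in medium without nitrogen, and control libraries from cells grown on for 1 h untreated. The labels name a batch, 1 or 2, for each library but no separate cultures, so the p-values rest on differences among these libraries that may be technical only. The other 2 libraries of the study, from potassium starvation, entered the fit only to estimate that spread and in the scaling of the libraries.

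Yeast cells take up rich nitrogen sources such as glutamine first and keep the genes for poorer sources silent, a control called nitrogen catabolite repression. When nitrogen runs short, the kinase complex TORC1 loses activity, the GATA factors Gln3 and Gat1 enter the nucleus, and genes for the uptake and breakdown of allantoin, proline, peptides and other sources are switched on. The same loss of TORC1 activity slows the making of ribosomes, a major use of nitrogen in a growing cell, and starts autophagy, in which parts of the cytoplasm are carried to the vacuole and degraded.

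Reads in these files were assigned to 7127 annotated features, 3532 of them short (under 1000 bases) and 3595 long. In many places the reads of a well-known gene stand not under its own identifier but under a dubious open reading frame on the opposite strand. A feature was called paired when it had a single annotated gene on the other strand over 50% or more of its length and over 100 bases or more, and this gene coded for a protein. There were 398 such features opposite 384 genes, 395 of them short, and 360 of them absent from the reference annotation. Features outside the ribosomal DNA that fail this rule are called unpaired or said to have no partner. They include features opposite several annotated genes and features that were not placed in the genome. Having no partner therefore does not mean that no gene lies opposite. Of 353 pairs that averaged 20 or more reads on feature and gene together, the feature opposite held more reads per base in 337. Below, a gene named without comment is read through the paired feature opposite it, and a gene read under its own name is said to be read under its own identifier. The library kit marks the strand, and the strand setting of the counting is not given in the sources used here. Had it been set for the other strand, reads under a gene's own identifier would come from the strand opposite that gene, so values under own identifiers are those of the deposited identifiers and not surely of the named genes' transcripts.

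Paired features held a smaller share of the reads in the nitrogen libraries, and long features a larger one. Paired features outside the ribosomal DNA took 28.3% and 26.1% of reads in nitrogen libraries 1 and 2, against 59.9% and 55.3% in control libraries 1 and 2. Long features without a partner took 35.4% and 32.7% in the nitrogen libraries, against 8.21% and 7.01% in the control libraries. Other short features took 16.8% and 14.7% in the nitrogen libraries, against 9.60% and 9.39% in the control libraries. For these 3 classes the groups did not overlap. The 95% Wilson intervals, which cover counting error only, were narrow, for example 28.1% to 28.4% for the first of these shares. The ribosomal DNA features, at 19.5% and 26.5% in the nitrogen libraries, against 22.3% and 28.3% in the control libraries, did overlap, although within each batch the nitrogen library was the lower. In bulk libraries, fewer cells with a transcript and less of it per cell cannot be told apart.

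**Figure D1:**
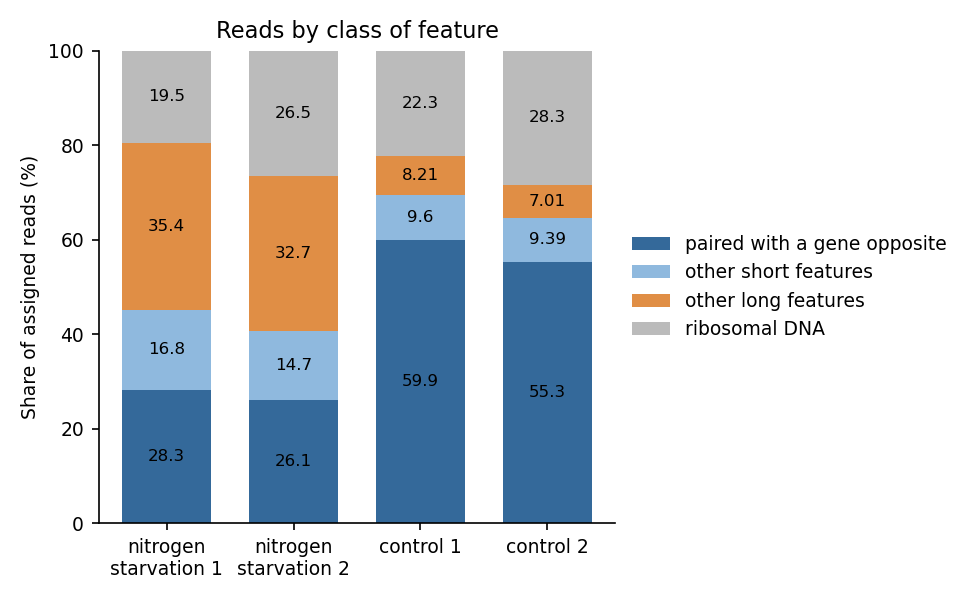
Share of assigned reads (%, vertical axis) held by 4 classes of feature in each library, with the share printed in each block. Long features without a partner take 35.4% and 32.7% in the nitrogen libraries, against 8.21% and 7.01% in the control libraries.

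The depth was shallow. The nitrogen libraries held 357839 and 374245 reads, and the control libraries 425919 and 418010. Even so, 2369 and 2444 features reached 10 reads in the nitrogen libraries, against 1343 and 1197 in the control libraries. Libraries of a group differed by more than sampling noise, with a chi-square per degree of freedom of 8.16 between the nitrogen libraries and 7.59 between the control libraries. It was 28.8 between the potassium libraries, which enter the estimate of the spread. Of the genes the strain lacks, LEU2, MET17 and URA3 had no reads under their own identifiers in the 4 libraries and HIS3 had at most 7, but other genes also stand at or near 0 there, so this does not test the strain label. Read under their own identifiers, 7 markers of a cells summed to 31 and 34 reads in the nitrogen libraries, against 13 and 10 in the control libraries. Likewise 6 markers of alpha cells summed to 198 and 327.5 reads in the nitrogen libraries, against 39 and 36 in the control libraries. BY4741 is of mating type a, so the higher sums of alpha markers stand at odds with the label in each of the 4 libraries. They are reads under own identifiers, to which the doubt about strand applies, so they do not test the label. STE3, MF(ALPHA)2 and SAG1 held most of the alpha sums, and MF(ALPHA)1 had no reads. The part of these markers in the results was not tested.

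A shift of this size makes every fold change depend on how the libraries are scaled. Counts of 2253 features with 10 or more reads in at least 2 of the 4 libraries were tested with edgeR's quasi-likelihood test, called at an adjusted p under 0.05, after TMM scaling over all features. TMM gave the nitrogen libraries effective sizes of 788846 and 743490 reads and the control libraries 294771 and 247762, so a fitted fold change lies well below the ratio of raw reads. Relative to this, scaling over the paired features moved the median of all tested features up by 1.29 on the log2 scale, and scaling by library size up by 1.69. A direction is therefore given only for features called the same way with TMM over all features and with TMM over paired features, which is what "called" means below. The second scaling lifts nearly all features, so it ended none of the 609 rises called with the first. Likewise, the first ended none of the 179 falls called with the second. A rise is thus decided by TMM over all features alone and a fall by TMM over paired features alone. TMM over unpaired long features, given below, is not part of a call. Fold changes are nitrogen starvation over control and are given with TMM over all features first.

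**Figure D2:**
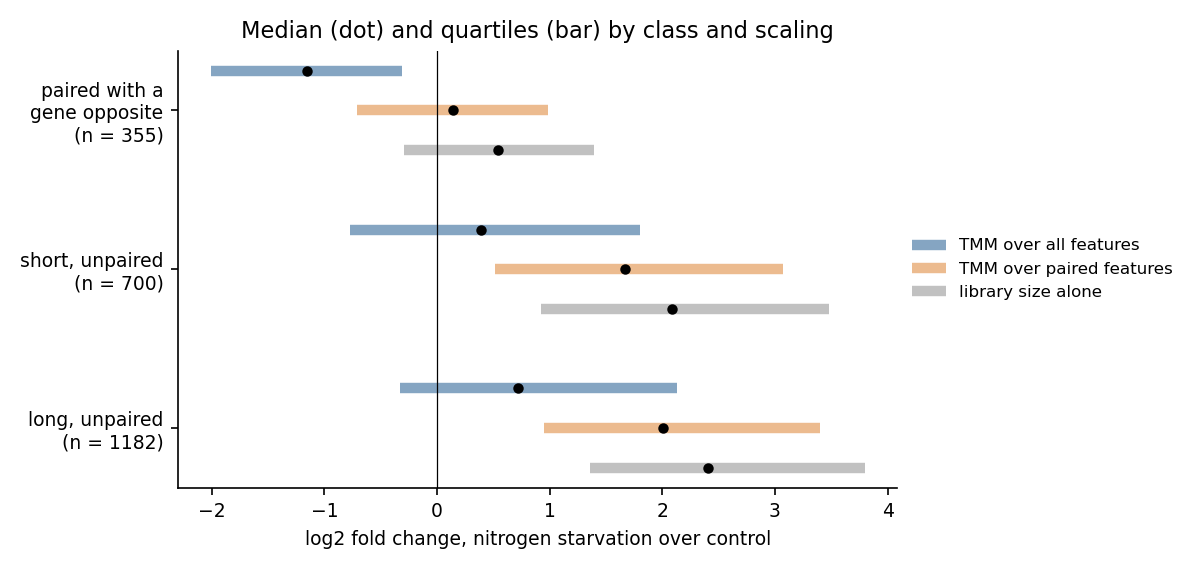
Median (dot) and quartiles (bar) of the log2 fold change, nitrogen starvation over control, for 3 classes of tested feature under 3 scalings. The median of paired features is -1.15 with TMM over all features and 0.14 with TMM over paired features. The median of long unpaired features lies above that of paired ones. A scaling moves all features by nearly the same amount, so this order is the same under each of the 3 and they do not test it.

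Short and long features gave different counts. With TMM over all features, 209 of 1063 short features were higher (19.7%) and 342 lower (32.2%), with a median log2 fold change of -0.28. Of 1190 long features 400 were higher (33.6%) and 129 lower (10.8%), with a median of 0.72, and of 355 paired features 21 were higher (5.92%) and 212 lower (59.7%). In all, 609 of 2253 features were higher (27%) and 471 lower (20.9%). With TMM over paired features the counts became 505 higher (47.5%) and 134 lower (12.6%) among short features, 812 higher (68.2%) and 45 lower (3.78%) among long ones, 100 higher (28.2%) and 92 lower (25.9%) among paired ones, and 1317 higher (58.5%) and 179 lower (7.94%) in all. With library size alone they were 571 higher (53.7%) and 92 lower (8.65%) among short features, 878 higher (73.8%) and 27 lower (2.27%) among long ones, 121 higher (34.1%) and 65 lower (18.3%) among paired ones, and 1449 higher (64.3%) and 119 lower (5.28%) in all. With TMM over unpaired long features they were 279 higher (23.4%) and 234 lower (19.7%) among long features, and 427 higher (19%) and 680 lower (30.2%) in all. Leaving out nitrogen library 1 or 2 left 136 short features higher, and leaving out control library 1 left 137; without nitrogen library 2, 256 long features were higher. Called in both scalings were 21 paired features higher (5.92% of 355 tested) and 92 lower (25.9%), 187 other short features higher (26.7% of 700) and 40 lower (5.71%), and 400 unpaired long features higher (33.8% of 1182) and 44 lower (3.72%). These percentages are the background for the counts that follow.

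The largest rise among paired features was that of DAL80, a GATA factor that represses genes of nitrogen catabolite repression and is itself one of them. Its feature, YKR033C, at 506879 to 507304 of chromosome XI (build R64, minus strand), lies with 407 bases opposite the DAL80 gene. It held 4826 and 4646 reads in the nitrogen libraries, against 4 and 2 in the control libraries. The log2 fold change was 9.09 (SE 0.43, adjusted p = 6.4e-06), and 10.37 with TMM over paired features. DAL7, malate synthase, which uses the glyoxylate left by allantoin breakdown, had 4417 and 3988 reads in the nitrogen libraries, against 40 and 32 in the control libraries (log2 5.37, SE 0.29, adjusted p = 8.3e-06). GAT1, the activator named above, had 1874 and 2337 reads in the nitrogen libraries, against 134 and 96 in the control libraries (log2 2.71, SE 0.28, adjusted p = 1.3e-04). The groups of all 3 genes were far apart, and the replicates of each group lay close together.

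GATA factors bind the letters GATAAG. The stretches below run from 300 to 101 bases before the start codon of these 3 genes, 200 bases each, and show how densely that motif occurs there; they are read 5′ to 3′ on the strand of the gene from the R64 reference, and capitals mark GATAAG or its reverse complement.
DAL80, chrXI:506598-506797, plus strand: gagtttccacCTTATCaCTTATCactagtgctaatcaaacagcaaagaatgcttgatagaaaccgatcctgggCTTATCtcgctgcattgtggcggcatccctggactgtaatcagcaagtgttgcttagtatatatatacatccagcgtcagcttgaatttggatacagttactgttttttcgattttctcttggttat
DAL7, chrIX:414780-414979, minus strand: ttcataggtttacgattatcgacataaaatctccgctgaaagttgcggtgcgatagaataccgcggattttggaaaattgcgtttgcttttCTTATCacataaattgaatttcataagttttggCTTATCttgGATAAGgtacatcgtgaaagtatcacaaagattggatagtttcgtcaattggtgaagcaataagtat
GAT1, chrVI:95666-95865, plus strand: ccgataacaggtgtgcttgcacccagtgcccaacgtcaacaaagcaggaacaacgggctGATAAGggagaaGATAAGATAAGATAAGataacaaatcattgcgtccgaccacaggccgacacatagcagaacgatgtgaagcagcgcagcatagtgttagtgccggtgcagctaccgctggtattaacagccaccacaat

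Counting matches on both strands in the 300 bases before the start codon, with overlapping matches counted apart, DAL80 and DAL7 have 3 each and GAT1 has 4. Of the 21 genes called higher, 9 (42.9%) have at least 1 match, against 880 of all 6001 genes with such a window (14.7%). The share was 5 of 90 (5.56%) among genes called lower and 32 of 235 (13.6%) among tested paired genes called in neither direction. The list of nitrogen catabolite repression genes as a whole has it in 33 of 57 windows (57.9%). A match is a description of the letters and not a site of binding.

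Of 5 genes of that list with a tested paired feature, 3 were called higher and none lower. DAL81, an activator of allantoin and GABA genes, had 171 and 120 reads in the nitrogen libraries, against 65 and 82 in the control libraries, a log2 fold change of -0.54 that became 0.76 with TMM over paired features, and neither value passed. CAR2, ornithine transaminase of arginine breakdown, had 7 and 26 reads in the nitrogen libraries, against 10 and 15 in the control libraries. Its log2 fold change was -1.09 (adjusted p = 0.27), and a fit with the batch as a block gave -1.26 and called it lower (adjusted p = 0.04999), whereas TMM over paired features gave 0.19.

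Sulfur and arginine genes followed. MET28, a factor that helps Met4 and Cbf1 switch on the genes of sulfur metabolism, had 5594 and 5470 reads in the nitrogen libraries, against 89 and 90 in the control libraries (log2 4.44, SE 0.32, adjusted p = 2.9e-05). MET2, which activates homoserine for methionine synthesis, had 1625 and 2180 reads in the nitrogen libraries, against 39 and 70 in the control libraries (log2 3.60, SE 0.37, adjusted p = 1.2e-04). These were both of the sulfur list's 2 tested paired genes, and each was more than an order of magnitude higher in the nitrogen libraries. ARG5,6, whose product carries out early steps of arginine synthesis, had 3477 and 2119 reads in the nitrogen libraries, against 112 and 58 in the control libraries (log2 3.56, SE 0.35, adjusted p = 9.9e-05). It was the only 1 of 5 tested amino acid synthesis genes called; TRP4 had 136 and 140 reads in the nitrogen libraries, against 40 and 38 in the control libraries (log2 0.32, adjusted p = 0.45), and LEU9, PRO3 and TRP1 had log2 fold changes of -0.93, -1.24 and -1.05 that turned positive with TMM over paired features.

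Cbf1 binds the letters CACGTG, which stand in 214 of the 6001 windows (3.57%) and, among the 21 genes called higher, before MET28 and MNN4. The MET28 stretch is shown because it holds that motif, in capitals, with the same limits of 300 to 101 bases before the start codon.
MET28, chrIX:384220-384419, minus strand: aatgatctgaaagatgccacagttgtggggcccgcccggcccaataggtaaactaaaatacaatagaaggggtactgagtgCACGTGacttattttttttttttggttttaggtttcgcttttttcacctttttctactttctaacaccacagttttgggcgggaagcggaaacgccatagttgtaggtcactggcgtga

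TGACTC, the letters bound by Gcn4, the activator of amino acid synthesis genes, stand in 5 of the 21 windows (23.8%), against 466 of all 6001 (7.77%). They are those of ARG5,6, with 2 matches, GEM1, MET28, HUL4 and YMC1.

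The other paired genes called higher have varied roles. MNN4, a regulator of phosphate addition to cell wall mannan, had 1308 and 1590 reads in the nitrogen libraries, against 104 and 105 in the control libraries (log2 2.29, SE 0.24, adjusted p = 1.3e-04). CUP2, the copper sensor that switches on metallothionein, had 843 and 1069 reads in the nitrogen libraries, against 119 and 108 in the control libraries (log2 1.58, SE 0.22, adjusted p = 7.0e-04). YMC1, a mitochondrial carrier, had 1454 and 1315 reads in the nitrogen libraries, against 195 and 148 in the control libraries (log2 1.52, SE 0.25, adjusted p = 0.0014). Each of these was several-fold higher by raw reads. With library size alone the median log2 fold change of all 2253 tested features was 1.99, and 64.3% were called higher. A several-fold rise in raw reads was therefore common among tested features.

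DIA1, a gene of invasive growth, had 524 and 1303 reads in the nitrogen libraries, against 49 and 70 in the control libraries (log2 2.44). SNX41, a sorting nexin of the endosome, had 461 and 558 reads in the nitrogen libraries, against 52 and 55 in the control libraries (log2 1.75). SGE1, a drug exporter, had 560 and 504 reads in the nitrogen libraries, against 90 and 75 in the control libraries (log2 1.19). Nitrogen library 2 stood above nitrogen library 1 for DIA1, and the other pairs of replicates lay close.

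HVG1, a putative nucleotide sugar transporter, had 190 and 152 reads in the nitrogen libraries, against 11 and 6 in the control libraries, under the identifier of FMP49. The pair MRPL51 and YPR099C is the reverse of the usual case: the feature with the reads is MRPL51, a mitochondrial ribosomal protein gene, and the feature opposite it is the uncharacterised YPR099C. It had 77 and 69 reads in the nitrogen libraries, against 5 and 5 in the control libraries (log2 2.35, adjusted p = 0.0023). YIL059C, also uncharacterised, was called higher with a log2 fold change of 1.30.

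The remaining 6 of the 21 rises had few control reads and lost their call when 1 library was left out. They were RNP1, an RNA-binding protein (log2 2.66, highest adjusted p without 1 library 0.092), MNC1 (2.41, 0.089), GEM1, a GTPase of the mitochondrial surface (1.90, 0.070), HUL4, a ubiquitin ligase (1.88, 0.093), FMP40 (1.56, 0.098) and GCY1, a glycerol dehydrogenase (0.98, 0.060). Leaving out nitrogen library 2 ended the call of all but HUL4, leaving out control library 2 that of all but FMP40, and leaving out control library 1 that of RNP1, FMP40 and GCY1. These fits without 1 library used TMM over all features alone. Whether the other 15 rises and the 92 falls keep their call in both scalings without each library was not tested. With library size alone all 21 rises were called as well. That scaling moved the median of all tested features up by 1.69, so it could hardly end a rise. Of the 92 falls, 65 were called there. Of the genes named below, the falls of RPL36A, BUD23, RFC1, CDC6, PMT1, SRP54, NUP53, SPT4, SPT5, SPT6, SPT15, BUR6, NCB2, SET2 and RSC8, and 1 of the 2 features of TRM5, were not. TMM over unpaired long features, which shifted that median by -0.52, called 19 of the 355 paired features higher and 261 lower.

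**Figure D3:**
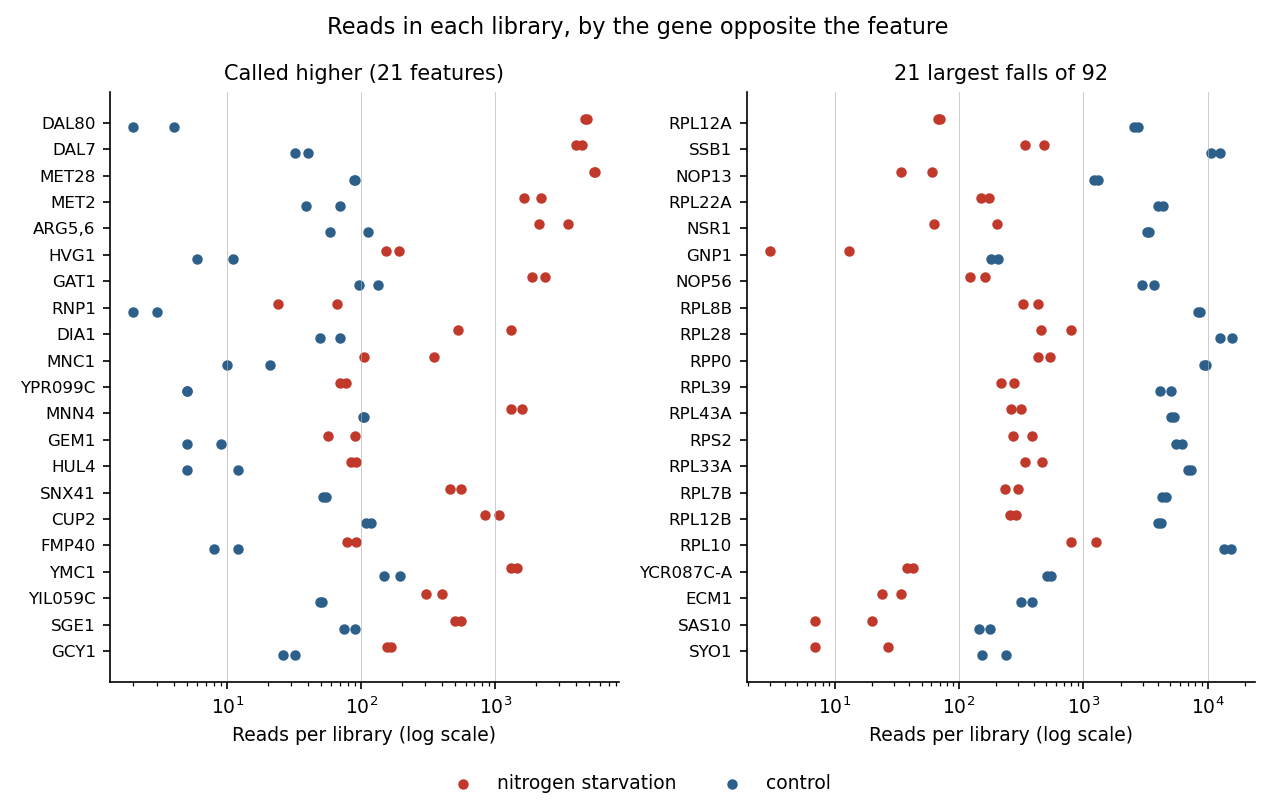
Reads per library (log axis) for the 21 paired features called higher, left, and the 21 largest falls of 92, right, named by the gene opposite. Each gene has 2 points for nitrogen starvation above 2 points for control; DAL80 stands at 4826 and 4646 reads against 4 and 2, and RPL28 at 804 and 455 against 15641 and 12498.

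Ribosomal protein genes were among the largest falls. All 15 with a tested paired feature were called lower, against 25.9% of paired features, with a median log2 fold change of -5.68, or -4.38 with TMM over paired features; the medians over all tested paired features were -1.15 and 0.14. RPL28 had 804 and 455 reads in the nitrogen libraries, against 15641 and 12498 in the control libraries (log2 -5.99, SE 0.49, adjusted p = 4.5e-05). RPL10 had 1270 and 799 reads in the nitrogen libraries, against 15387 and 13491 in the control libraries (log2 -5.31, SE 0.46). RPP0, the base of the ribosomal stalk, had 541 and 433 reads in the nitrogen libraries, against 9793 and 9325 in the control libraries (log2 -5.80, SE 0.48). These 3 genes have no second copy, and their groups differed by more than an order of magnitude in raw reads. RPL12A, at 71 and 68 reads in the nitrogen libraries, against 2752 and 2550 in the control libraries, had the lowest log2 fold change, -6.75, but its reads and those of RPL12B, a near-identical copy, may have been divided by the quantifier and are uncertain, as are those of the other genes of this list with a second copy. The smallest fall was that of RPL36A, at 45 and 27 reads in the nitrogen libraries, against 78 and 67 in the control libraries (log2 -2.51). Under own identifiers 13 short features of this list were tested, of which 2 were called higher and 4 lower, with a median of -0.46, or 0.82 with TMM over paired features.

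Genes that build the ribosome fell with it. Of 16 with a tested paired feature, 15 were called lower, with a list median of -4.50, or -3.20 with TMM over paired features. NSR1, nucleolin, had 203 and 63 reads in the nitrogen libraries, against 3232 and 3353 in the control libraries (log2 -6.16, SE 0.64, adjusted p = 1.3e-04). NOP56, a core protein of the box C/D particles that methylate ribosomal RNA, had 163 and 123 reads in the nitrogen libraries, against 3707 and 2980 in the control libraries (log2 -6.04, SE 0.38, adjusted p = 1.9e-05). NOP13, a nucleolar RNA-binding protein, had 61 and 34 reads in the nitrogen libraries, against 1219 and 1321 in the control libraries (log2 -6.25, SE 0.44). In each of the 3 the control libraries lay close together, and the nitrogen libraries were at least an order of magnitude lower in raw reads. The other 12 called lower were ECM1, SAS10, SYO1, NOP4, REI1, REX4, RRP14, RRP15, RRP9, PNO1, RRP17 and BUD23, with log2 fold changes between -5.10 and -2.65. JJJ1, a cochaperone of 60S maturation, was the exception, at 502 and 546 reads in the nitrogen libraries, against 356 and 487 in the control libraries (log2 -1.21, or 0.09 with TMM over paired features).

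The promoters of such genes are known for a pair of motifs, PAC and RRPE, here searched as GATGAG and AAAATTTT. The stretches of NSR1 and NOP56 are shown because they hold both, marked in capitals, with the limits and reading direction given above.
NSR1, chrVII:807757-807956, minus strand: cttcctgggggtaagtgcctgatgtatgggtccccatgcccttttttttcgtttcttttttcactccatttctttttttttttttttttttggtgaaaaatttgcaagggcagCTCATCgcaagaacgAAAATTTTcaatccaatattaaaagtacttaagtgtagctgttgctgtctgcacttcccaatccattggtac
NOP56, chrXII:545797-545996, plus strand: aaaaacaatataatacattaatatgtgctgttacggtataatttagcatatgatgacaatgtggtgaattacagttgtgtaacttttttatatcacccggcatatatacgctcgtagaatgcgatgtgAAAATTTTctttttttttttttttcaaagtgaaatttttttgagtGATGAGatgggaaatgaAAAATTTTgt

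GATGAG stood in the windows of all 15 ribosome assembly genes called lower, against 1148 of all 6001 windows (19.1%), and AAAATTTT in 9 of the 15 (60%), against 565 of 6001 (9.42%). The whole list of 158 such genes, most of which have no paired feature, carries them in 138 (87.3%) and 116 windows (73.4%), so the 15 are not set apart from their list. Among the 15 ribosomal protein genes called lower each motif stood in 1. Among the 60 genes called lower on neither list GATGAG stood in 18 (30%), and among the tested paired genes called in neither direction in 34 of 235 (14.5%).

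Of 3 genes of RNA polymerases I and III and of 3 translation factor genes, 2 each were called lower. RPC19, a subunit that polymerases I and III share, had 258 and 204 reads in the nitrogen libraries, against 802 and 763 in the control libraries (log2 -3.27, SE 0.26, adjusted p = 3.9e-05). RPC53 of polymerase III had a log2 fold change of -3.49, and TFC1, at 30 and 21 reads in the nitrogen libraries, against 18 and 14 in the control libraries, was not called. SUI3, the beta subunit of initiation factor eIF2, had 613 and 523 reads in the nitrogen libraries, against 1824 and 1517 in the control libraries (log2 -3.06, SE 0.24). SSZ1, part of the chaperone complex at the ribosome's exit tunnel, fell by 3.36 on the log2 scale. HEF3, a translation elongation factor little used in rich medium, had 79 and 63 reads in the nitrogen libraries, against 9 and 30 in the control libraries (log2 0.31, adjusted p = 0.65). Of 3 tRNA synthetases GLN4 was called lower (log2 -3.22), whereas ILS1 and MES1 were at -1.38 and -1.44 and lay near 0 with TMM over paired features.

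Of 6 chaperone genes 5 were called lower. SSB1, which binds nascent chains on the ribosome, had 487 and 340 reads in the nitrogen libraries, against 12572 and 10714 in the control libraries (log2 -6.32, SE 0.51, adjusted p = 4.1e-05). SSA1, a cytosolic Hsp70, had 451 and 240 reads in the nitrogen libraries, against 1592 and 2647 in the control libraries (log2 -4.17). Both have a close copy in the genome, SSB2 and SSA2, so their reads are uncertain. CCT2 and CCT8, subunits of the chaperonin that folds actin and tubulin, had log2 fold changes of -2.70 and -2.49 and CPR6 of -2.54. CCT6, of the same chaperonin, had 331 and 347 reads in the nitrogen libraries, against 305 and 246 in the control libraries (log2 -1.19, or 0.10 with TMM over paired features).

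Of 4 tested genes of glycolysis and fermentation 3 were called lower. CDC19, pyruvate kinase, had 4683 and 3877 reads in the nitrogen libraries, against 38715 and 32380 in the control libraries (log2 -4.55, SE 0.61, adjusted p = 5.3e-04). GPM1, phosphoglycerate mutase, had 3428 and 5535 reads in the nitrogen libraries, against 28375 and 24855 in the control libraries (log2 -4.06, SE 0.59). PGK1, phosphoglycerate kinase, had 1362 and 1283 reads in the nitrogen libraries, against 12766 and 11828 in the control libraries (log2 -4.72, SE 0.46). GPD1, of glycerol synthesis, was the only 1 of the 4 tested genes of this list not called, at 163 and 103 reads in the nitrogen libraries, against 62 and 56 in the control libraries.

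Lists of DNA replication and secretion had shares of falls nearer to the 25.9% of all paired features. POL30, the sliding clamp of DNA polymerase, had 125 and 123 reads in the nitrogen libraries, against 610 and 692 in the control libraries (log2 -3.91, SE 0.30, adjusted p = 3.3e-05). With CDC6 (-2.39) and RFC1 (-1.92) it made 3 called lower of 9 tested genes of replication and the cell cycle, and MCM3, RNR2, CDC9, DBF4, DPB3 and DSE3 were not called in both scalings. Of 8 secretory genes, SEC61, the channel into the endoplasmic reticulum (-2.70), SRP54 of the signal recognition particle (-2.09) and PMT1, a protein mannosyltransferase (-1.99), were called lower. Of 2 amino acid permeases 1 was called lower: GNP1, the high-affinity glutamine permease, had 13 and 3 reads in the nitrogen libraries, against 207 and 182 in the control libraries (log2 -6.07, SE 0.47, adjusted p = 3.3e-05). Of 6 iron and copper features 1 was called lower and 1 higher. CTR1, the copper transporter, had 22 and 11 reads in the nitrogen libraries, against 67 and 62 in the control libraries (log2 -3.46), while CUP2 was higher. IDH2, a subunit of isocitrate dehydrogenase, had a log2 fold change of -2.67.

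Outside the lists, 40 further paired features were called lower. They include several of general transcription and chromatin: SPT15, the TATA-binding protein (-2.10), BUR6 and NCB2, the 2 subunits of its inhibitor NC2 (-1.97 and -2.32), RPB3 of RNA polymerase II (-2.84), the elongation factors SPT4, SPT5 and SPT6, SET2, a histone methyltransferase, and RSC8, a subunit of the RSC remodeller. RNA and tRNA maturation were represented by LHP1, the La protein (-4.49), LSM5 (-3.90), TRM5 (-3.41 and -2.71 under 2 features) and NCS2 (-2.98). CAF20, which binds the cap-binding factor eIF4E, had 623 and 614 reads in the nitrogen libraries, against 1606 and 1322 in the control libraries (log2 -2.74). GAS1, a cell wall enzyme (-3.27), GND1, of the pentose phosphate pathway (-3.16), TNA1, the nicotinic acid permease (-2.81), and DIC1, the mitochondrial dicarboxylate carrier (-2.66), were also among them. These genes were picked for mention after their values were seen.

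**Figure D4:**
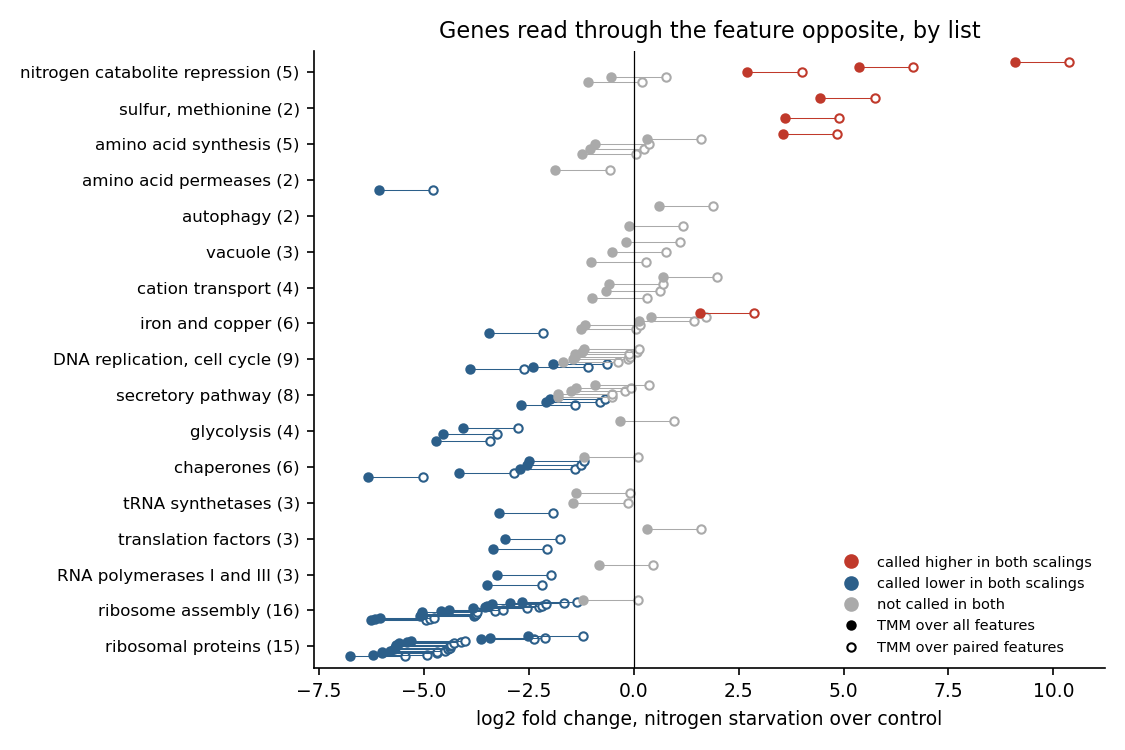
Log2 fold change, nitrogen starvation over control, of genes read through the feature opposite, by list with the number of tested features. Filled points use TMM over all features and open points TMM over paired features; all 15 ribosomal protein genes lie below 0 in both, and DAL80, DAL7 and GAT1 at 9.09, 5.37 and 2.71 above it.

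Autophagy and vacuole genes were hardly covered. ATG16, which joins the Atg12-Atg5 conjugate, had 120 and 113 reads in the nitrogen libraries, against 25 and 29 in the control libraries, and the fold change was 0.60 on the log2 scale (SE 0.34, adjusted p = 0.18), or 1.89 with TMM over paired features. CUE5, a receptor that links ubiquitinated proteins to autophagy, had 465 and 521 reads in the nitrogen libraries, against 204 and 174 in the control libraries (log2 -0.11, or 1.18 with TMM over paired features). VMA4 of the vacuolar proton pump had 3340 and 3081 reads in the nitrogen libraries, against 2308 and 2250 in the control libraries, at -1.01 and 0.29 in the 2 scalings. VMA9 and AVT3 were likewise not called, nor were the 4 tested features of the cation transport list, opposite NHX1, PMR1 and VHS3. PMR1 was at -0.59 (adjusted p = 0.075), and the fit with the batch as a block called it lower at -0.58 (adjusted p = 0.037). Raw reads were higher in both nitrogen libraries for these features, except for 1 of the 2 opposite VHS3, and the scaling decided the sign or the call.

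Under own identifiers, with the doubt about strand given above, the values differed. For 99 pairs both the feature opposite and the gene's own identifier were tested. In 6 both were called higher, in 4 both lower, in 7 the feature opposite was lower and the own identifier higher, and in 1 the reverse; in 22 the own identifier was called higher and the feature opposite in neither direction. Across the 99 pairs, which share libraries and cover 96 genes, the 2 log2 fold changes had a Pearson correlation of 0.44 and a Spearman correlation of 0.19.

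DAL80, DAL7 and MET28 were called higher both through the feature opposite and under their own identifier, but with few reads under the latter. Under its own identifier DAL80 had 16 and 27 reads in the nitrogen libraries, DAL7 26 and 21 and MET28 16 and 12, against none in the control libraries for any of them. In the nitrogen libraries the features opposite held 4826 and 4646 reads for DAL80, 4417 and 3988 for DAL7 and 5594 and 5470 for MET28. What gives rise to the few reads under the own identifiers was not tested. NOP56 was called lower in both ways. Its own identifier had 9 and 13 reads in the nitrogen libraries, against 262 and 180 in the control libraries. MET2 went opposite ways: the own identifier had 2 and 8 reads in the nitrogen libraries, against 41 and 30 in the control libraries (log2 -4.25), where the feature opposite rose. SSZ1, SUI3, TRM5, MNP1, NUP53 and YNL058C were lower through the feature opposite and higher under their own identifier; SUI3's own identifier had 64 and 37 reads in the nitrogen libraries, against 5 and 5 in the control libraries. HIP1, a histidine permease, had 741 and 276 reads in the nitrogen libraries, against 3 and 2 in the control libraries, under its own identifier (log2 6.11), while the feature opposite had 194 and 262 reads in the nitrogen libraries, against 288 and 298 in the control libraries (log2 -1.86, adjusted p = 0.0013; -0.57, adjusted p = 0.067, with TMM over paired features).

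**Figure D5:**
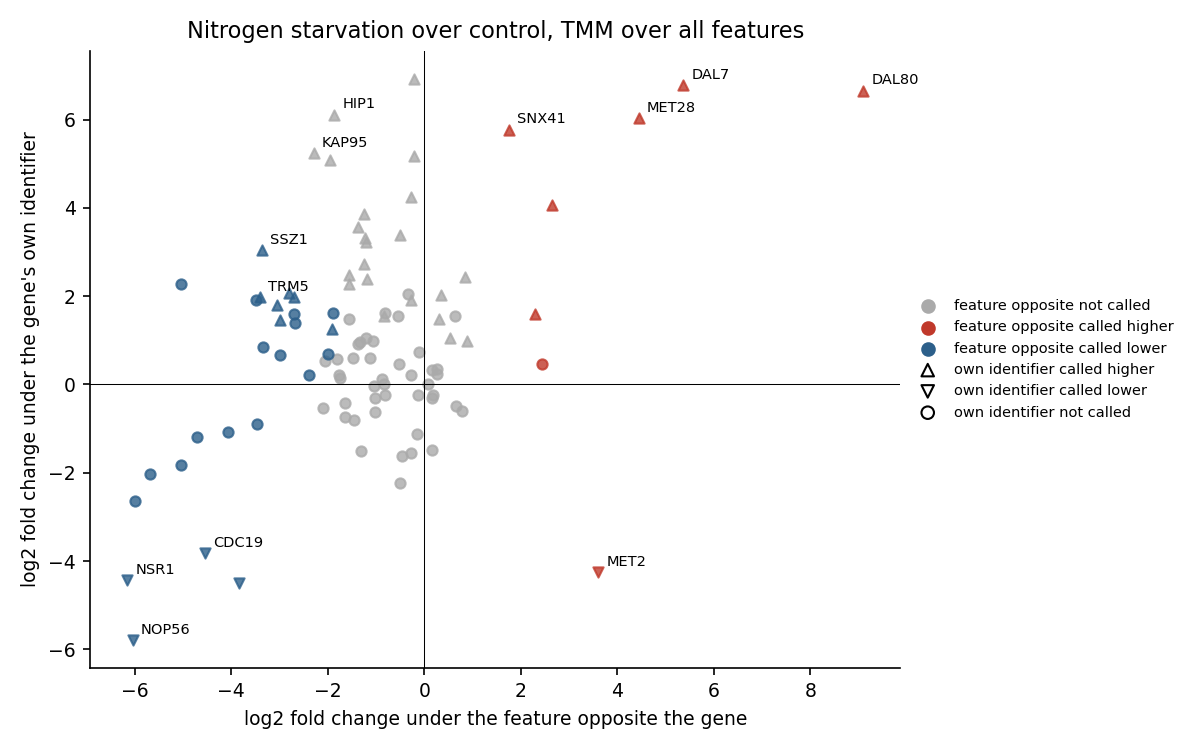
Log2 fold change, nitrogen starvation over control, under the feature opposite a gene (horizontal) and under the gene's own identifier (vertical) for 99 pairs, with TMM over all features. Colour gives the call of the feature opposite and the marker that of the own identifier; DAL80, DAL7 and MET28 lie at the upper right, NOP56 and NSR1 at the lower left and MET2 at the lower right.

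Of the 700 tested short features with no partner by the rule above, 187 were called higher (26.7%) and 40 lower (5.71%). Whether a gene lies opposite them is not told by this class. Among the most abundant of those called higher, chosen after their values were seen, PAN6, pantothenate synthase, had 1180 and 883 reads in the nitrogen libraries, against 6 and 5 in the control libraries (log2 6.03). GPP2, a glycerol phosphatase, had 1318 and 1232 reads in the nitrogen libraries, against 56 and 14 in the control libraries (log2 3.72). NRE1 had 732 and 762 reads in the nitrogen libraries, against 4 and 3 in the control libraries (log2 6.21). The control libraries were close to empty for PAN6 and NRE1. Features called lower held more reads still. YEL034C-A had 2407 and 2225 reads in the nitrogen libraries, against 10738 and 12168 in the control libraries (log2 -3.82). YPL250W-A, which was not placed in the genome, had 334 and 336 reads in the nitrogen libraries, against 5894 and 5732 in the control libraries (log2 -5.62).

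Also picked after their values were seen were MET31, DIM1 and RPS31. MET31, a zinc-finger activator of sulfur genes, had 299 and 452 reads in the nitrogen libraries, against 1 and 2 in the control libraries. DIM1, the dimethylase of 18S ribosomal RNA, had 265 and 202 reads in the nitrogen libraries, against none in the control libraries, the opposite direction to the ribosome assembly genes read through paired features. RPS31, 1 of the 13 ribosomal protein genes read under their own identifiers, had none in the nitrogen libraries, against 30 and 19 in the control libraries. CUP1-1, a metallothionein gene, had 0 and 0 reads in the nitrogen libraries, against 14 and 21 in the control libraries, and its copy CUP1-2 had 18 and 17 in the nitrogen libraries, against 0 and 0 in the control libraries. These are near-identical copies between which the quantifier may have divided reads, so neither value is taken as a change.

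Long features make up most of the rises, and they are read under their own identifiers, to which the doubt about strand applies. Of 1182 unpaired long features 400 were called higher (33.8%), with a median log2 fold change of 2.93, and 39 of them had no reads in the control libraries. Of the same 1182, 44 were called lower (3.72%), with a median of -3.21. The balance depends on the scaling: with TMM over these unpaired long features themselves, 279 were higher (23.6%) and 230 lower (19.5%). Long unpaired features with at least 1 read numbered 3099 and 3211 in the nitrogen libraries, against 2583 and 2460 in the control libraries, and those with 10 or more reads 1246 and 1339 in the nitrogen libraries, against 591 and 523 in the control libraries.

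The most read of them was PRR2, a protein kinase gene on the minus strand of chromosome IV at 74446 to 76545, at 8551 and 6741 reads in the nitrogen libraries, against 14 and 15 in the control libraries (log2 7.53, SE 0.46, adjusted p = 1.6e-05). The next gene on its 3′ side, 527 bases away on the same strand, is GDH2, the NAD-dependent glutamate dehydrogenase that releases ammonium from glutamate. DGR2 had 2574 and 2077 reads in the nitrogen libraries, against 9 and 13 in the control libraries (log2 6.20, SE 0.31), and COS111 1235 and 1828 reads in the nitrogen libraries, against 19 and 16 in the control libraries (log2 4.96, SE 0.34). SIP4, an activator of gluconeogenesis genes, had 1361 and 913 reads in the nitrogen libraries, against 26 and 20 in the control libraries (log2 4.12), with ARG3 of arginine synthesis as the next gene on its 3′ side. The next gene on the 3′ side of DGR2 is OAC1, a mitochondrial carrier, on the same strand, and that of COS111 is LDH1, on the opposite strand. These 4 were picked after their values were seen, and in each the groups were far apart.

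Other abundant long features, also picked after their values were seen, rose less. YPS3, a cell surface protease, had 963 and 1442 reads in the nitrogen libraries, against 111 and 64 in the control libraries (log2 2.31). FRE5, a putative iron reductase, had 1426 and 1481 reads in the nitrogen libraries, against 244 and 171 in the control libraries (log2 1.32, SE 0.21, adjusted p = 0.0013). SNX41 and MNN4, higher through paired features, were higher under their own identifiers as well. SNX41 had 1075 and 1076 reads there in the nitrogen libraries, against 13 and 1 in the control libraries, and MNN4 919 and 1162 in the nitrogen libraries, against 139 and 105 in the control libraries.

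By the ranking of fold changes, 7 of the 8 leading long features had no control reads, so that only a bound can be given, with each control library set at 3 reads. MKK2, a kinase of the cell wall integrity pathway, had 102 and 101 reads in the nitrogen libraries and was at least 11.98-fold higher (29.4-fold with TMM over paired features). POG1, COX10, PRP45, CAF40 and RGP1 had bounds between 4.54- and 7.55-fold. DESeq2 did not call POG1, which had 95 and 33 reads in the nitrogen libraries (adjusted p = 0.25).

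Most of the leading falls among long features were again nucleolar genes. CBF5, the pseudouridine synthase of ribosomal RNA, had 21 and 17 reads in the nitrogen libraries, against 238 and 182 in the control libraries (log2 -4.94, SE 0.37, adjusted p = 3.0e-05). FPR4, a nucleolar prolyl isomerase and histone chaperone, had 3 and 4 reads in the nitrogen libraries, against 43 and 45 in the control libraries (log2 -5.08), and NOP7 7 and 1 in the nitrogen libraries, against 39 and 28 in the control libraries (log2 -4.49). DRS1, a helicase of 60S assembly, had 0 and 1 reads in the nitrogen libraries, against 21 and 20 in the control libraries, a ratio of 116-fold lower (95% counting interval 19.7 to 4684). NOP53 was 33.9-fold lower (8.41 to 296), at 1 and 1 reads in the nitrogen libraries, against 11 and 13 in the control libraries. Among the 8 leading falls FBA1, fructose-bisphosphate aldolase, was the only 1 outside the ribosome assembly list, at 5 and 4 reads in the nitrogen libraries, against 45 and 35 in the control libraries (log2 -4.58).

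The lists read under long own identifiers split, and the members named from them were picked after their values were seen. Of 39 ribosome assembly genes 14 were called higher and 9 lower, where 33.8% and 3.72% of all unpaired long features were; UTP10 had 360 and 436 reads in the nitrogen libraries, against 3 and 3 in the control libraries, and NOC4 180 and 129 reads in the nitrogen libraries, against 2 and 1 in the control libraries. Of 22 nitrogen catabolite repression genes 5 were higher and 2 lower. GAP1, the general amino acid permease, had 30 and 34 reads in the nitrogen libraries, against none in the control libraries; DAL2, allantoicase, had 13 and 13 in the nitrogen libraries, against 1 and 0 in the control libraries; and OPT2, a peptide transporter, had 629 and 509 in the nitrogen libraries, against 114 and 128 in the control libraries (log2 0.72, adjusted p = 0.047). PTR2, the importer of small peptides, was lower, at 81 and 65 reads in the nitrogen libraries, against 111 and 111 in the control libraries (log2 -2.11, or -0.81 with TMM over paired features), and so was AVT6.

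Amino acid synthesis gave 7 higher and none lower of 14, with a median log2 fold change of 2.55 against 0.72 for all unpaired long features; LEU1 had 35 and 31 reads in the nitrogen libraries, against none in the control libraries, and THR1 38 and 47 in the nitrogen libraries, against 0 and 1 in the control libraries. Iron and copper genes gave 8 higher and none lower of 11, namely MAC1, FET4 and the reductase genes FRE1, FRE4, FRE5, FRE6, FRE7 and FRE8, with a median of 1.32. Meiosis genes gave 9 higher and 1 lower of 27, autophagy 2 higher of 7, ATG2 and ATG18, and vacuole genes none higher and 2 lower of 9. Amino acid permeases gave 6 higher and 1 lower of 12, and secretory genes 5 higher and none lower of 10. The sulfur list, whose 2 paired genes were higher, gave 1 higher and 2 lower of 10 under long own identifiers, and glycolysis 1 higher and 3 lower of 8. Short own identifiers differed, where 26.7% of all unpaired short features were higher and 5.71% lower. There sulfur gave 2 higher and none lower of 3, glycolysis 2 and none of 4, and vacuole genes 3 and none of 4. Amino acid synthesis gave 1 higher and none lower of 5, autophagy none either way of 4, and secretory genes none higher and 1 lower of 7.

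The position of neighbours was counted as well. The next protein-coding gene on the 3′ side lay on the same strand for 257 of the 400 unpaired long features called higher (64.3%), for 19 of 44 called lower (43.2%) and for 367 of 730 placed features called in neither direction (50.3%). The distance to it had a median of 436, 440 and 432 bases for these groups. These are counts over neighbours in 1 genome, given as a description, and what links a feature to its neighbour was not tested.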

How the data were processed

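The authors' deposited files give, per library, an estimated count of reads for each annotated feature, which need not be whole. The columns are those written by salmon, per the file headers; STAR 2.7.3a, DESeq2 and build R64 are named in the submitters' processing notes. For the quantifier, neither version nor strand setting is given in the sources used here, and reads of a gene and of an antisense feature are kept apart only as far as that setting allowed. Per the labels, DNA was removed on the extraction column and the library kit was KAPA mRNA HyperPrep, which selects polyadenylated RNA.

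Features were placed on the RefSeq R64 annotation (6169) or where a reading frame as long as the deposited feature was found near its numbered neighbours (621). The search put 5594 of 5667 annotated genes of 1 exon at their annotated place, 2 elsewhere and 71 not at a single place.

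Estimated counts were rounded and tested with edgeR 4.0.16 in R 4.3.3 (glmQLFit and glmQLFTest). The SE given with a log2 fold change was derived from that test. It is the absolute log2 fold change divided by the square root of the F statistic, and so is not a separate measure of spread. Features had at least 10 reads in at least 2 of the 4 nitrogen and control libraries, the fit took in all 6 libraries and had 3 residual degrees of freedom, and p-values were adjusted by the Benjamini-Hochberg method over all 2253 tested features. A deposited table of normalized values was not used. The script was tested on simulated data with equal numbers of rises and falls. Those data lack the shift between libraries seen here, so that test does not bear on the choice of scaling. Alternatives were other scalings, DESeq2 1.42.0, other filters, 4 libraries only, a replicate block and leaving out each library. Tables were handled in Python with pandas 2.3.3.

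Named genes are, among called features that averaged 10 CPM or more and moved one way in batch 1 and batch 2, the 15 largest rises and falls of paired features, the 8 largest rises and falls of long features with a symbol, and every list member with a tested paired feature. Others are said to be picked after their values were seen. One gene that the rule names is not reported here. The members, lists and rules were chosen with earlier results of these data known. Of the symbols on 33 lists, DAL8 and IMD1 were not matched.

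Equal replicate numbers are paired because the labels give them as a batch. Deviations of same-numbered libraries from their group means had a correlation of -0.033 between nitrogen and control libraries over 2253 features.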

Additional observations from a re-analysis of the deposited data

How the results depend on the processing

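The scaling decided most of what changed. With library size alone, 571 short features were higher and 92 lower, 878 long ones higher and 27 lower, and 121 paired ones higher and 65 lower. With TMM over paired features the counts were 505 and 134, 812 and 45, and 100 and 92, and TMM over unpaired long features called 279 long features higher and 234 lower, and 427 and 680 of all features. The last of these scalings and the absence of a filter on low counts shifted the median of all features by -0.52 and 0.37 on the log2 scale. A split of short from long at 600 bases left 95 short features higher. Leaving out 1 library at a time gave 136 to 152 short features higher and 281 to 299 lower, 256 to 285 long ones higher and 91 to 103 lower, and 16 to 21 paired ones higher and 182 to 193 lower. The replicate block, which uses the batch, gave 195 and 351 short, 374 and 133 long and 21 and 220 paired features higher and lower, and of 130 named results it changed no call beyond CAR2 and PMR1, named above. DESeq2 called 460 features higher and 434 lower, against 609 and 471 with edgeR, and did not pass POG1 or 1 feature opposite VHS3 that was lower with TMM over all features only.

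The genes below changed the sign of their log2 fold change relative to TMM over all features; none of them is among those called in both scalings. Beyond the scaling itself, the cause was not tested. With library size alone the values were CNE1 0.34, ERV46 0.20, ILS1 0.34, TFC1 0.88, DPB3 0.47, VMA9 1.19, ARE1 0.89, CDC9 0.29, GPD1 1.38, TRP1 0.66, DBF4 0.52, CCT6 0.51, CCC2 0.46 and 0.55, MCM3 0.010, PRO3 0.48, HAC1 0.77, PMR1 1.12, MES1 0.27, DAL81 1.19, RNR2 0.32, AVT3 1.51, ERG27 1.62, CAR2 0.59, JJJ1 0.52, CUE5 1.59, VHS3 1.04 and 0.72, LEU9 0.77, DSE3 0.27 and VMA4 0.70. With TMM over paired features they were TFC1 0.47, DPB3 0.069, VMA9 0.78, ARE1 0.48, GPD1 0.96, TRP1 0.25, DBF4 0.12, CCT6 0.10, CCC2 0.048 and 0.14, PRO3 0.059, HAC1 0.37, PMR1 0.70, DAL81 0.76, AVT3 1.11, ERG27 1.20, CAR2 0.19, JJJ1 0.091, CUE5 1.18, VHS3 0.64 and 0.31, LEU9 0.37 and VMA4 0.29. With no filter they were GPD1 0.050, AVT3 0.19, ERG27 0.28 and CUE5 0.26, and with TMM over unpaired long features TRP4 -0.20, ARN2 -0.38, HEF3 -0.20 and ISU1 -0.10. Over the fits without 1 library the values ranged for DIT2 from -0.010 to 2.25, ARN2 from -0.25 to 0.62, ERG27 from -0.20 to 0.011, HEF3 from -0.39 to 1.59, CUE5 from -0.24 to 0.0075 and GPH1 from -0.087 to 0.94.

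DAL80, DAL7, GAT1, MET28 and MET2 kept their direction under each alternative run. Their adjusted p stayed under 0.05 in the runs with both libraries of each group.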
